A study of Homo sapiens with 4 samples.

Results

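Rodent-named microRNA (miRNA) probes were examined on arrays hybridized with RNA of the human prostate cancer line LAPC-4, to see which of them gave signal in human cells. The probes were chosen by name alone: the species field had to be mmu (mouse) or rno (rat), the second field had to be a miR or let-7 name, the probe had to be the matched and not the mismatched version, and no human matched probe on the array could carry the same name. This gave 124 of the 1406 probes, and 124 of the 223 rodent-named matched probes. They comprised 98 mouse-named and 26 rat-named probes with 119 different names, 5 of which were printed for both species. The array also held 455 human miRNA probes, 99 rodent-named probes with a human namesake, 107 virus or worm probes and 604 probes with 2 mismatches to a miRNA (2mut probes).

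All cells belonged to the LAPC-4 line and had been kept for 24 hours in androgen-free medium with 10% charcoal-stripped serum. They then received R1881, a synthetic androgen, at 0, 0.1, 1 or 10 nM for a time that the labels do not state. Each dose was measured once, on 1 single-colour (Cy3) array with 10 µg of total RNA, so values have no replicate error, and the small number of arrays limits their precision. Values are the mean signals of the files, as intensities on a linear scale. As a check of the cell type, 3 of 6 epithelial markers (miR-141, miR-200b and miR-200c) exceeded the limit defined below, and miR-200a, miR-375 and miR-205 did not. The limit was exceeded by 0 of 3 blood, 0 of 2 smooth muscle and fibroblast, 0 of 2 neural, 0 of 1 liver and 0 of 5 embryonic stem cell markers. Of 4 skeletal muscle markers 1 exceeded it, miR-206 at a mean of 174.

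A miRNA is cut from a hairpin precursor, and either arm of the hairpin can give a mature strand. In the older naming used here the less abundant arm carries an asterisk. A number is as a rule shared across species when the genes are taken as orthologs, but a shared number alone does not establish this. A letter or an arm suffix can be given in one species and not in another. A rodent name without a human namesake can therefore be a miRNA gene known in rodents alone or a gene found in humans under that number later. It can also be the other arm of a hairpin that humans share, or a strand that humans have under another name. A number absent in humans thus does not by itself mark a miRNA as known in rodents alone. The seed of a mature strand (bases 2 to 8) pairs with its target transcripts, so strands with one seed tend to share targets, while the arms of a hairpin have different ones.

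By number, the 124 probes fell into 3 classes. A human probe with the same number was printed for 26 of them, 12 more had a human miRNA of that number in the RefSeq annotation of GRCh38.p14, and 86 had neither. Mature human strands from RefSeq are shown for some hairpins of the arm comparison, with the seed in capitals. Strands of miR-151 are not shown, so its arms are told apart by name alone. Strand and arm were matched by name, and the human strand need not equal the printed rodent probe in every base. The asterisk strand and the main strand of a hairpin are listed next to each other. miR-466 and miR-664a-3p are shown because their rodent names had no human probe on the array.
hsa-miR-140-3p (rodent name miR-140*): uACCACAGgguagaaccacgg
hsa-miR-140-5p (human probe miR-140): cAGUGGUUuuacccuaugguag
hsa-let-7d-3p (rodent name let-7d*): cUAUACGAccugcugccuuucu
hsa-let-7d-5p (human probe let-7d): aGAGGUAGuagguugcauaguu
hsa-miR-20a-3p (rodent name miR-20a*): aCUGCAUUaugagcacuuaaag
hsa-miR-20a-5p (human probe miR-20a): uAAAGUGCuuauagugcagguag
hsa-miR-29c-5p (rodent name miR-29c*): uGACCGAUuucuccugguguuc
hsa-miR-29c-3p (human probe miR-29c): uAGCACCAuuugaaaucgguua
hsa-miR-664a-3p (rodent name miR-664): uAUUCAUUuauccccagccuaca
hsa-miR-466 (rodent name miR-466): aUACACAUacacgcaacacacau

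These strands lie on human chromosomes in GRCh38.p14 as follows. The miR-140 strands lie on the plus strand at chr16:69933142-69933162 (3p) and chr16:69933103-69933124 (5p), inside the protein-coding gene WWP2. The let-7d strands lie on the plus strand at chr9:94178895-94178916 (3p) and chr9:94178841-94178862 (5p), inside the long non-coding RNA genes MIRLET7A1HG and LINC02603. Those of miR-20a lie on the plus strand at chr13:91351108-91351129 and chr13:91351072-91351094, inside MIR17HG, and those of miR-29c on the minus strand at chr1:207801903-207801924 and chr1:207801865-207801886, inside MIR29B2CHG. hsa-miR-664a-3p lies on the minus strand at chr1:220200549-220200571, inside RAB3GAP2 and a small nucleolar RNA gene, and hsa-miR-466 on the minus strand at chr3:31161714-31161736, outside other annotated genes. No 2 of these 10 strands share a seed. The let-7d-5p seed GAGGUAG occurs in 11 human mature miRNAs of the RefSeq table and that of miR-20a-5p, AAAGUGC, in 8, whereas the seeds of miR-140-3p, let-7d-3p, miR-20a-3p and miR-29c-5p occur in 1 each. hsa-miR-466 holds 7 CA dinucleotides in 23 bases.

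Signal was judged against the 2mut probes. The limit was the 95th percentile of the 576 2mut probes listed above 0 on every array, taken on the mean of the 4 arrays (135 intensity units) and on each array (118, 135.5, 138 and 143.5 from 0 to 10 nM R1881). By mean signal 19 of the 124 probes (15.3%) exceeded the limit, against a background of 21.5% over all 785 matched miRNA probes. The share was 25.9% for human probes, 22.2% for rodent-named probes with a human namesake and 9.35% for virus or worm probes, which have no expected target in these cells. The rodent share thus lay between that of the human probes and that of the virus and worm probes. On all 4 arrays 18 of the 124 exceeded the limit, against 19.5% of all matched probes and 6.54% of virus or worm probes. Mouse-named and rat-named probes passed at nearly the same rate, with 15 of 98 and 4 of 26.

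The median of the 124 mean signals was 95.3, against 93.6 for human probes, 91.4 for virus or worm probes and 82.9 for 2mut probes. The other 105 probes ranged from 69.3 (miR-450b) to 129 (miR-466), with a median of 92.3. Of these 105, 104 lay under the limit on every array, and miR-714 alone exceeded it, at 0 nM, where it read 123 against a limit of 118. The choice of limit mattered for the count: the 99th percentile of the 2mut probes left 11 of the 124 by mean signal. Just inside the limit stood miR-701, at a mean of 135.5, and miR-678 at 141, and just outside it stood miR-466 (129), miR-691 (128), miR-129-5p (122), miR-685 (122) and the mouse-named miR-297 (118). For miR-701 the mean was 1.00 times the limit, and on the arrays at 0.1 and 1 nM it was under it.

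Of the 4 highest signals, 3 came from probes whose number was found neither in the human RefSeq table nor on a human probe. miR-709, a mouse-named miRNA, read 394.5, 574.5, 650 and 805 at 0, 0.1, 1 and 10 nM R1881. miR-467b, encoded in the mouse in a large cluster within an intron of Sfmbt2, read 435.5, 433, 364.5 and 499.5. The rat-named miR-352 read 343, 375.5, 378.5 and 433.75. All 3 were above 2 times the limit on each array. Before scaling, the intensities of miR-709 and miR-352 were higher at each step of dose, whereas miR-467b was lowest at 1 nM. After the quantile normalization described below, miR-352 was 1-, 1- and 0.93-fold of untreated at 0.1, 1 and 10 nM. The same values for miR-709 were 1.38-, 1.43- and 1.54-fold. Intensities of different probes also reflect how strongly each probe binds, so their order is one of signals and does not rank amounts of RNA.

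A middle group of signals was formed by miR-467a, miR-713, miR-706 and miR-669c. miR-467a, from the same mouse cluster as miR-467b, read 283, 285.5, 233 and 332, lowest at 1 nM like miR-467b. miR-713 read 154, 257, 269 and 326, with every treated array above the untreated one. miR-706 read 236, 220, 271.5 and 218, with no order by dose. miR-669c, also of the Sfmbt2 cluster, read 193, 214.5, 204 and 227.

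The other probes of this kind were dimmer. miR-705 read 165, 192, 188 and 220.5, and miR-703 read 181, 199, 189 and 187. miR-468 read 168, 177, 172 and 169, a highest-to-lowest ratio of 1.05, the smallest among the 19. Before scaling its signal was thus nearly level. After quantile normalization miR-468 was 0.93-, 0.89- and 0.80-fold of untreated at 0.1, 1 and 10 nM. miR-698 read 123, 159, 157 and 181.5, lowest without R1881. miR-678 read 126, 136, 152 and 151.5, and miR-701 read 125, 129, 135 and 153, both lowest without R1881 before scaling. After quantile normalization neither was lowest on the untreated array. There miR-678 was 0.98-, 1.10- and 1.02-fold of untreated at 0.1, 1 and 10 nM, and miR-701 was 0.92-, 0.95- and 1.04-fold. Over the 19 probes the ratio of the highest to the lowest array ran from 1.05 for miR-468 to 2.12 for miR-713.

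Another 4 probes above the limit were asterisk strands of hairpins that humans share. miR-151* (rat-named) read 354, 354, 388 and 474 from 0 to 10 nM, 2.90 times the limit by mean. After quantile normalization it was 0.89-, 1.01- and 1.02-fold of untreated at 0.1, 1 and 10 nM. The human probe miR-151, for the other arm of that hairpin by name, had a mean of 122, below the limit, and exceeded it on the untreated array alone. miR-140*, whose main arm is known for its role in cartilage, read 170.5, 188, 173 and 200.5 on its mouse-named probe and 157, 172.5, 161 and 200 on its rat-named probe. The human probe for the main arm, miR-140, had a mean of 92.1, below the limit. In these 2 hairpins the asterisk strand was above the limit by mean signal and the main strand was not. let-7d*, the partner strand of the let-7 tumour suppressor miRNA let-7d, read 129, 153, 142 and 162, whereas the human let-7d probe had a mean of 1692.

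Most other asterisk strands stayed under the limit. Of the 18 probes with an asterisk, 4 exceeded it (22.2%), near the 21.5% of all matched probes: the 2 for miR-140* and those for miR-151* and let-7d*. Their median mean signal was 94.4, against 95.5 for the 106 probes without an asterisk. The strands miR-20a* and miR-20b* read 77.0 and 91.1 by mean, while the human probes miR-20a and miR-20b, members of paralogous growth-promoting clusters, read 751 and 516. miR-29c* read 93.9, against 407 for the human probe miR-29c, a miRNA that targets collagen transcripts, and miR-22* was under the limit on every array, while the human probe miR-22 exceeded it on 3 of 4 arrays, with a mean of 152. miR-7* read 106, against 124 for miR-7.

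Over the 26 probes with a human probe of the same number, 4 exceeded the limit and 22 did not. For 1 of the 4 (let-7d*) and for 6 of the 22 at least 1 human probe of that number (for let-7d*, of the let-7 name) also did so, for 3 of the 4 (miR-151* and both miR-140* probes) none did, and for the remaining 16 neither did. Some rodent names denote a strand that has a human probe under another name. The rat-named miR-363-3p had a mean of 101 and the human miR-363 probe one of 96.1. miR-30e* had 100.25 and the human miR-30e-3p probe 112, and miR-129-5p had 122 and the human miR-129 probe 106. None of these 6 probes exceeded the limit. The rodent-named miR-101b read 89.6, while the human probe miR-101, which targets the EZH2 transcript, read 247. The mouse-named miR-7b read 82.2.

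None of the 12 probes whose number was found in the human RefSeq table but on no human probe exceeded the limit. They ranged from 78.7 (miR-708) to 129 (miR-466), with a median of 97.3, and miR-466, the mouse-named miR-297 and miR-664 were the brightest. The rat-named miR-664 read 86.5, 124, 119 and 132, so the treated arrays were above the untreated one although all 4 were below their limits. The human strands of miR-664a-3p and miR-466 are printed above. Of the 86 probes with neither, 15 exceeded the limit (17.4%), with a range of means from 72.6 to 606 and a median of 96.0.

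By mouse locus, counts on lists of 2 to 10 probes were read beside the 15.3% of the 124 and the 21.5% of all matched probes above the limit, and none of them was tested. In mice the miR-290 to miR-295 cluster is the main miRNA cluster of embryonic stem cells, and 0 of its 10 probes exceeded the limit, with means from 79.5 to 113 and miR-294, miR-290 and miR-293 as the brightest. Of 8 listed probes for the imprinted Dlk1-Dio3 region, 0 did so, with miR-434-3p (113.5), miR-341 (103) and miR-679 (99.6) on top. The list does not hold every miRNA of that region: miR-409, miR-376b*, miR-376c, miR-382* and miR-433-5p also belong to it and were under the limit too. Of 4 probes for an X-linked cluster expressed in testis, 0 did so (highest miR-470, at 96.4), and of the 2 for miR-322 and miR-351, which lie together in rodents, 0 did so (76.1 and 95.4). Of the 10 probes for the Sfmbt2 cluster 3 exceeded the limit, miR-467b, miR-467a and miR-669c. The other members of that list did not, among them miR-669b at 118, miR-669a at 109, both miR-297 probes and miR-467* at 79.1. The mouse names from miR-677 to miR-721, a block grouped here after the values were seen, gave 8 of 44 above the limit (18.2%), against 11 of 80 (13.75%) for the other probes.

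Names printed for both rodents allowed a comparison of probes on the same array. miR-207 read 174, 188.5, 172 and 188 on its mouse-named probe and 176, 181, 180.5 and 187 on its rat-named probe. Before scaling both were nearly level over dose. After quantile normalization the mouse-named probe was 0.95-, 0.85- and 0.86-fold of untreated at 0.1, 1 and 10 nM. The rat-named probe was 0.91-, 0.88- and 0.84-fold. For miR-207 the mouse-named over the rat-named intensity was between 0.954 and 1.04 on the 4 arrays, with means of 181 and 181. For miR-140* it was between 1.00 and 1.09. For miR-344 it ran from 0.882 to 1.10 and for miR-297 from 1.06 to 1.32. The pair for miR-350 differed most. Its mouse-named probe read 77.5, 85.5, 88 and 86.25, against 83.5, 112, 113 and 127.5 on the rat-named one. These ratios are of intensities that include background, which draws them towards 1, most of all for miR-297, miR-344 and miR-350, whose probes were under the limit. In the authors' deposited table, with the background constant removed, the miR-140* probes had 106.25 (mouse-named) and 90.5 (rat-named) at 0.1 nM and 124.5 and 124 at 10 nM. Whether the 2 probes of a name have the same sequence is not given in the sources used here.

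A probe with 2 mismatches to the same miRNA was printed for 27 of the 124, all mouse-named, and 25 of these mismatch probes were above 0 on every array. Of the 25 matched probes 16 were brighter than their mismatch probe on all 4 arrays, against 61.2% of the 551 matched probes outside the set that have one. At 1.5 times or more on all 4 arrays there was 1 of 25, against 18.7%. That probe was miR-140*, whose 2mut probe read 85, 84.5, 86 and 81, a matched-to-mismatched ratio of 2.18 on the means. The 2mut probe of let-7d* read 105, 127, 120 and 132, a ratio of 1.21. The 2mut probe of miR-207, a mouse-named miRNA, read 171.5, 179.5, 167 and 184, a ratio of 1.03. The miR-207 mismatch probe was thus nearly as bright as the matched one and itself above the limit on every array. Of the 19 probes above the limit, the other 16 have no 2mut probe of their own name and species, so their signal could not be set against one. The median ratio over the 25 was 1.09, with a range from 0.961 (miR-294) to 2.18.

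The series table that the authors deposited gave a second view of which probes counted as signal. On each array its values equal the intensity minus the median of the 604 2mut probes there (84.5, 82, 87 and 76), and the cell is empty where the intensity was under 2 times that median. Under that criterion 11, 15, 11 and 18 of the 124 had a value at 0, 0.1, 1 and 10 nM. Of all 802 rows in the deposited table, 107, 132, 120 and 162 had one. The cut itself differed between arrays, at 169, 164, 174 and 152. Of the 124 probes, 9 had a value on all 4 arrays: miR-709, miR-467b, miR-151*, miR-352, miR-467a, miR-706, miR-669c, miR-703 and the rat-named miR-207. miR-713 and miR-705 had a value on the 3 treated arrays and an empty cell on the untreated one. Another 106 had no value on any array, and miR-678, though above the 95th percentile limit, was among them.

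The dose comparison asked which of the 19 probes changed with R1881. After background correction (normexp, offset 50) and quantile normalization, miR-713 was 0.66, 0.71 and 0.86 log2 units above the untreated array at 0.1, 1 and 10 nM, and miR-709 was 0.47, 0.51 and 0.62 log2 units above it. At 10 nM this is 1.82-fold for miR-713 and 1.54-fold for miR-709. At a threshold of 1.5-fold, 1, 1 and 2 of the 19 were higher at 0.1, 1 and 10 nM, against 1.18%, 2.96% and 3.55% of the 169 matched probes above the limit. In the other direction 0 of the 19 were 1.5-fold lower at any dose, against 0%, 1.78% and 2.37%. By fold at 10 nM miR-713 ranked first and miR-709 the sixth among the 169 probes. These are ratios of single arrays, with no replicate check, and all 3 share the untreated array.

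In intensities before scaling, miR-713 at 10 nM was 2.12 times and miR-709 2.04 times its untreated value. miR-698 followed at 1.47 times. Among the treated arrays alone the steps were smaller: 10 nM over 0.1 nM was 1.27 for miR-713 and 1.40 for miR-709. Most of the difference of miR-713 thus lay between the untreated array and the 3 treated ones. The median of the 19 quantile-normalized folds at 10 nM was 1.00 and that of the 169 probes was 1.00. With no scaling the medians were 1.31 and 1.32, a shift of 0.40 log2 units for the 169 that counts of higher and lower probes carry with them. Without scaling 18 of the 19 lay above untreated at 10 nM and after quantile normalization 10 did.

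Of the 10 virus or worm probes above the limit, which have no expected target in these cells, 1 was also past 1.5-fold. It was the probe for miR-K12-3, a miRNA of Kaposi sarcoma herpesvirus, which read 212, 342.5, 382.5 and 462.75 from 0 to 10 nM. This is 1.48-, 1.70- and 1.67-fold above untreated after normalization and the third largest fold of the 169 at 10 nM. The other 9 lay between 0.778-fold and 1.37-fold at 10 nM. The control probe named Bio B spike read 362, 473, 525.5 and 605, which is 1.25-, 1.30- and 1.28-fold above after normalization. The other bright spike probe, Bio C, was 1.06-, 1.02- and 1.11-fold above. Both glycine tRNA probes above the limit were higher on the treated arrays, Gly_tRNA_2_24 by 1.61-, 1.53- and 1.68-fold and tRNA-Gly by 1.39-, 1.57- and 1.30-fold. The part of signal from other RNA in the values of miR-709 and miR-713 was not tested.

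A line over the rank of the dose was fitted to each of the 169 probes. For miR-713 the slope was 0.26 ± 0.07 (SE) on the log2 scale for each step of dose (limma over 4 arrays, adjusted p = 0.129), for miR-709 it was 0.19 ± 0.05 (limma, adjusted p = 0.129) and for miR-698 it was 0.10 ± 0.03 (limma, adjusted p = 0.144). miR-468 had a slope of -0.10 ± 0.03 (limma, adjusted p = 0.129). None of the 19 passed an adjusted p of 0.05, nor did any of the 169 (0% rising and 0% falling), while 7 of the 19 and 47 of the 169 had an unadjusted p under 0.05 in limma. Slopes of the 19 ranged from -0.11 (miR-706) to 0.26 (miR-713), and 9 of the 19 were above 0. Each p measures the scatter of 4 arrays about a line, and the labels do not say whether these came from separate cultures. The smallest adjusted p of the 169 was 0.129.

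The trend calls depended on the scaling. With cyclic loess miR-713 (limma, adjusted p = 0.0225) and miR-709 (limma, adjusted p = 0.0282) rose, 2 of the 19, against 6.51% of the 169 rising and 8.28% falling. With median scaling miR-713, miR-709 and miR-698 rose, 3 of the 19, against 36.7% of the 169 rising and 0.592% falling. With no scaling 6 rose (miR-713, miR-709, miR-698, miR-151*, miR-705 and miR-678), against 43.8% rising and 1.18% falling. In that fit the 19 probes all had the same SE of 0.059, so these calls do not reflect the scatter of each probe itself. Without the untreated array the slopes of miR-713 and miR-709 were 0.10 and 0.08 (limma, adjusted p = 0.457 for each).

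Below the limit, intensities are mostly background, so their ratios between doses are given as a description of signals and not as folds of a miRNA. The ratio of 10 nM to untreated intensity ran from 0.821 to 1.53 over the 105 probes, with a median of 0.959 and 34 above 1. Over the 576 2mut probes the median was 0.910 and 117 were above 1. When all 785 matched probes entered the trend fit, 10 of the 124 passed in limma, 9 rising (background 5.35%) and 1 falling (background 2.68%). Besides miR-709 and miR-713, the rising ones were miR-664, miR-350 (rat-named), miR-434-3p, miR-690, miR-382*, miR-463 and miR-702, all under the limit on every array. Those 7 read between 71.5 and 90.5 on the untreated array and between 82 and 132 at 10 nM. The falling one was miR-714, which read 123, 115, 103.5 and 107. Of the 19 probes above the limit, miR-709 and miR-713 alone passed in that fit.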

How the data were processed

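Each deposited file lists 1 intensity per probe name, called mean signal per the file headers. The numbers were neither background-subtracted nor brought to a shared scale, as the values show. Sources used here name no scanner, image software, spot filter or probe sequence. Per the labels, Cy3 was the dye and the arrays were custom CombiMatrix ones. The authors' deposited series table holds the same intensities less 1 constant per array. After dropping the 28 2mut probes with a 0 on any array, 1378 probes went through normexp (offset 50), log2 and quantile normalization in limma 3.58.1 under R 4.3.3. The trend was fitted on dose rank over the 169 matched miRNA probes whose mean exceeded the limit, with 2 residual degrees of freedom each, moderated by empirical Bayes, and Benjamini-Hochberg adjustment. Residual variances of 0, which arise in some fits, were offset by limma. On simulated data with 169 probes that all had the median scatter, 98.4% of changes reaching 1.5-fold at the highest dose were recovered, with 0.82 false calls per run. Scatter in the real data differs between probes, so this recovery does not carry over to them.

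The members and lists were chosen with earlier results of these data known. Named were all probes above the limit, the 5 just below it, those passing a trend test, the 3 brightest per list and human probes of the same number. Sequences and gene positions are from RefSeq for GRCh38.p14, and arms were matched by hand. Alternatives were other limits, scalings, codings of dose, no filter, a 2-fold threshold and leaving out the untreated array.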

Additional observations from a re-analysis of the deposited data

How the results depend on the processing

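The count of 19 probes above the limit by mean signal was 17 to 21 with limits from virus and worm probes, from rodent 2mut probes or with zeros kept, on normalized log2 values, or without the untreated array, 15 at 2 times the 2mut median and 11 at the 99th percentile. On all 4 arrays, 18 became 7 at the 99th percentile, 15 with the virus and worm limit and 9 in the deposited table. The cut at 2 times the median and the deposited table were added after seeing the data. Of the 16 probes brighter than their mismatch probe, 1 was so by 1.5 times. The 0 trends (7 at an unadjusted p under 0.05, limma) became 3 with median scaling, 6 with no scaling, 2 with cyclic loess and 10 with no filter, and stayed 0 without background correction, with untreated set against the treated arrays, and without the untreated array. At 1.5-fold, the 1 higher probe at 1 nM became 2 with median scaling and 2 with no scaling, and the 2 higher at 10 nM became 1 with cyclic loess (miR-713) and 3 with median or no scaling. Among the 169 probes, 11 were higher at 1 nM with median scaling and 14 with no scaling. For the 169 at 10 nM the counts were 4 with cyclic loess, 52 with median scaling and 54 with no scaling. At 2-fold, 0 of the 19 were higher at 0.1, 1 or 10 nM after quantile normalization or cyclic loess. Unscaled values put 2 of the 19 past 2-fold at 10 nM, miR-713 (2.35-fold) and miR-709 (2.12-fold). Median-scaled values at that dose did so for the same probes (2.31- and 2.09-fold). The cause of these changes was not tested. No slope of miR-709, miR-713 or miR-698 turned its sign under these alternatives. No paired analysis was possible because each dose has 1 array. Signal over background limits the 105 dimmer probes.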
